A study of Arabidopsis thaliana with 16 samples.

Results

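AT5G48490 and AT5G55450 are lipid-transfer protein genes of Arabidopsis thaliana whose transcripts were higher in light than in darkness, and they are followed here over all 10 groups of the series. They were chosen by locus in the probe annotation, and they are 2 of 13286 loci that had a probe set of their own on the Affymetrix ATH1 array. AT5G48490 was read by probe set 248683 and AT5G55450 by probe set 248062, each matched to that locus alone. Because the genes were picked for a rise in light that these same arrays showed, their light responses are given as a description and without a p-value.

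Plant lipid-transfer proteins are small, secreted proteins held together by conserved disulphide bridges around a hydrophobic cavity. In the test tube they bind lipids and carry them between membranes. In shoots the family is known for roles in the surface cuticle and in defence signalling, and DIR1 is required for systemic acquired resistance, a defence state that spreads from an infected leaf. DIR1 (AT5G48485) is the gene next to AT5G48490 on chromosome 5 in RefSeq, and it had no probe set assigned to it alone in the annotation used. AT5G55450 lies farther along the same chromosome.

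Seedlings of Landsberg erecta, with no mutation or transgene named in the labels, were chilled for 3 days at 4 °C, given 30 min of light to start germination and grown for 3 days in darkness at 21 °C, and all groups share this start. Seedlings then stayed dark or were moved to white light before harvest, and each gave 1 tissue, a shoot apex sliced off under the meristem or a cotyledon trimmed at base and tip. The apex had 2 arrays in the dark, 2 at 1 h of light and 2 at 6 h, and a single array at each of 2, 24, 48 and 72 h, where the last pair of times also held young leaf primordia. The cotyledon had 2 arrays in the dark, 2 at 1 h and 2 at 6 h. A sample pooled about 1500 seedlings at 72 h and more than 4000 in the dark, from several plates and experiments, so p-values measure only the spread between such pools. Time in light and seedling age rose together, and they cannot be told apart. In such bulk tissue, fewer cells of a type and less RNA per cell cannot be told apart either.

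Signals are MAS5 values on a linear scale, and the number of arrays limits their precision. The floor below which signals have no order was set at each array's 35th percentile, 12.4 to 18.6 signal units. AT5G48490 lay above it on 16 of 16 arrays and AT5G55450 on 4 of 16. Apex 6 h replicate 2 stood apart, with a GAPDH control ratio (the 3' over the 5' probe set) of 5.40, against 0.832 to 1.85 on the other apex arrays and 1.73 to 4.72 on the cotyledon arrays. The same ratio for actin was 30.4 on that array and 5.20 to 14.2 on the others, so it was high on every array. In each apex pair replicate 2 had the higher ratio for both controls. Correlations between replicates ran from 0.883 in apex 6 h to 0.926 in apex 1 h, with apex dark second lowest at 0.896. Of 11 apex marker genes 2 had a probe set of their own. The stem cell gene CLV3 was above the floor on 4 of 10 apex arrays and on 0 of 6 cotyledon arrays. LAS, a regulator of axillary meristems, was above it on 9 of 10 apex arrays and 5 of 6 cotyledon arrays. Of the stomatal regulators, MUTE was above it on 3 of 10 apex arrays and 4 of 6 cotyledon arrays, SPCH on 10 of 10 and 6 of 6, and FAMA (FMA in the annotation) on 8 of 10 and 6 of 6. No mesophyll, epidermis or trichome marker had its own probe set, so the cotyledon label could not be checked against its main cell type.

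AT5G48490 was close to the floor in the dark apex and far above it at every later time. Its signal was 25.7 and 21.9 in the dark apex, 866 and 806 after 1 h, 2478 after 2 h, 1667 and 3174 after 6 h, 1979 after 24 h, 1506 after 48 h and 1245 after 72 h. Every lit apex array was higher than both dark arrays. The 2 h array lay between the replicates at 6 h, and the 48 h and 72 h arrays were each lower than the one before.

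**Figure D1:**
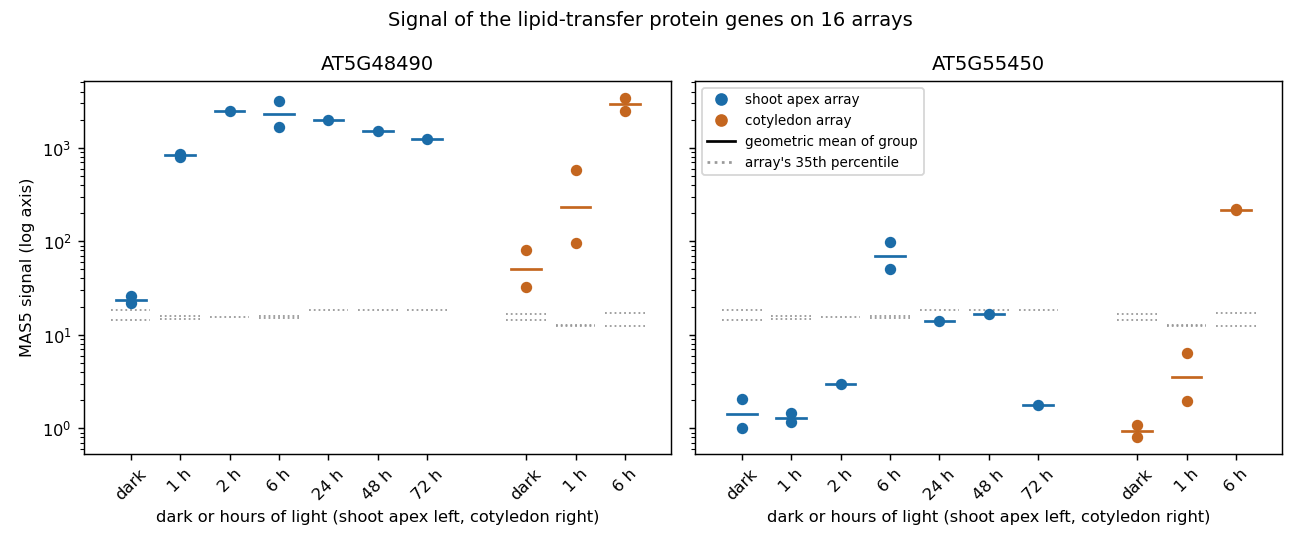
MAS5 signal (log axis) of AT5G48490 (left panel) and AT5G55450 (right panel) on each of 16 arrays, by hours of light in shoot apex and cotyledon. Points are arrays, bars are geometric means of a group, and dotted lines are each array's 35th percentile. AT5G48490 reached 866 and 806 after 1 h in the apex, whereas AT5G55450 was above the dotted lines at 6 h alone, in both tissues.

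On the log2 scale AT5G48490 was 5.14 ± 0.63 above the dark after 1 h in the apex (limma fit, ± SE), a 35.2-fold difference. It was 6.71 ± 0.77 above the dark after 2 h and 6.60 ± 0.63 after 6 h, where the fold was 96.9. After 24 h, 48 h and 72 h the differences from the dark were 6.38, 5.99 and 5.71, each ± 0.77, each from a lone array whose spread was taken from the groups with replicates. The mean of these 3 late arrays was 6.03 ± 0.57 above the dark and -0.57 ± 0.57 from the 6 h level, a step about the size of its standard error. Between 1 h and 6 h the signal was 1.46 ± 0.63 higher at 6 h. The apex 6 h value leaned on replicate 2, whose signal was 1.90 times that of replicate 1. Without that array the difference from the dark was 6.13.

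In the cotyledon AT5G48490 was at 81.0 and 32.2 in the dark, 95.2 and 576 after 1 h, and 3410 and 2498 after 6 h. Both 6 h arrays exceeded every other cotyledon array. The 1 h arrays disagreed, replicate 1 lying close to the higher dark array and replicate 2 well above it. The log2 difference from the dark was 2.20 ± 0.63 after 1 h, 0.90 without replicate 2 and 3.49 without replicate 1. After 6 h it was 5.84 ± 0.63, a 57.1-fold difference, and the 6 h level was 3.64 ± 0.63 above that at 1 h. The other probe sets that limma called higher in the apex after 1 h (1037 of them, picked on apex arrays) gave a median of 0.19 in cotyledon replicate 1 and 0.44 in replicate 2, so the array with the lower AT5G48490 signal was also the lower one over that set. The median signal of the whole array was also lower in replicate 1, 25.2 against 27.5. AT5G48490 itself was 2.60 apart on the log2 scale between these 2 arrays. The part of the array-wide differences in that gap was not tested.

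The light response of AT5G48490 was 2.94 ± 0.88 larger in the apex than in the cotyledon after 1 h and 0.76 ± 0.88 larger after 6 h. Leaving out replicate 1 of the 1 h cotyledon changed the first value to 1.64, and leaving out replicate 2 changed it to 4.24. Both are descriptions, because the gene was chosen for a rise in light and its light responses enter them.

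**Figure D2:**
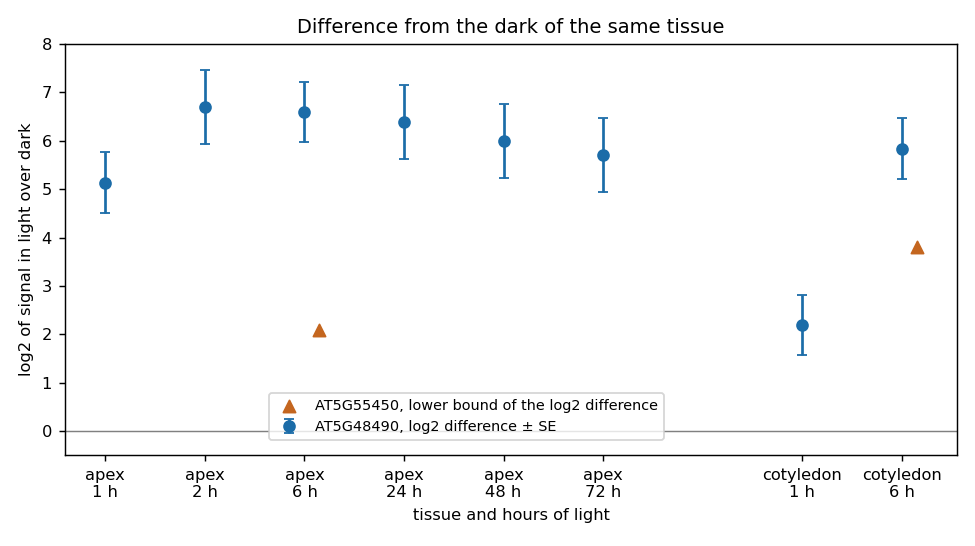
Log2 difference of the signal in light from the dark of the same tissue, by tissue and hours of light. Circles are AT5G48490 with the standard error of the limma fit, and triangles are lower bounds for AT5G55450, shown where the lit group was above the floor. AT5G48490 stood 5.14 above the dark after 1 h in the apex and 2.20 after 1 h in the cotyledon, while AT5G55450 had a bound at 6 h alone.

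Tissue was no part of how the genes were chosen, although arrays of either tissue that may have entered the choice enter these tests too. AT5G48490 was not called different between tissues in any of the 3 conditions. In the dark it averaged 23.8 ± 2.69 in the apex and 56.6 ± 34.5 in the cotyledon (SD, n = 2 each), a log2 difference of -1.11 ± 0.63 (adjusted p = 0.268, limma), where 16.9% of all tested probe sets were called. After 1 h it averaged 836 ± 42.4 in the apex and 335 ± 340 in the cotyledon, a log2 difference of 1.83 ± 0.63 (adjusted p = 0.0898, limma), where 8.71% were called. The size of the difference turned on 1 array: without cotyledon 1 h replicate 2 it was 3.13, and without replicate 1 it was 0.54. Each of these leaves a lone cotyledon array, assumed to vary like the other groups. After 6 h the averages were 2421 ± 1065 in the apex and 2954 ± 645 in the cotyledon, a log2 difference of -0.34 ± 0.63 (adjusted p = 0.859, limma), where 3.31% were called. A p that misses the threshold does not show that the tissues had equal levels.

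Ordered by geometric mean, AT5G48490 was highest in cotyledon 6 h, followed by apex 2 h, apex 6 h, apex 24 h, apex 48 h, apex 72 h, apex 1 h, cotyledon 1 h, cotyledon dark and apex dark. Among the first 7 of these groups no neighbouring pair differed by more than 2 standard errors. The step between apex 1 h and cotyledon 1 h (1.83 ± 0.63, not called) did exceed that. So did the step between cotyledon 1 h and cotyledon dark (2.20 ± 0.63), whereas that between the dark tissues (1.11 ± 0.63) did not. These steps are a description and no test, since the order was taken from the same values. Both larger steps leaned on the 1 h cotyledon pair, 95.2 and 576. Leaving out 1 array, the first ran from 0.54 to 3.13 and the second from 0.90 to 3.49.

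AT5G55450 was above the floor on the 6 h arrays and on no others. Its apex signal was 1.01 and 2.04 in the dark, 1.47 and 1.15 after 1 h, 2.99 after 2 h, 50.1 and 98.7 after 6 h, 13.9 after 24 h, 16.5 after 48 h and 1.79 after 72 h. Both 6 h arrays were above their floors, 15.1 and 15.7, and all other apex arrays were below theirs. The 24 h and 48 h arrays came closest, with floors of 18.5 each. In the cotyledon the signal was 1.08 and 0.807 in the dark, 6.33 and 1.94 after 1 h, and 214 and 221 after 6 h. The cotyledon 6 h replicates differed by a factor of 1.03.

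Since the dark groups were below the floor, folds for AT5G55450 are lower bounds, the bright group's mean over the floor of the dim arrays. The 6 h apex exceeded the dark apex at least 4.28-fold, and the 6 h cotyledon exceeded the dark cotyledon at least 13.9-fold. Against 1 h, the 6 h level was at least 4.61-fold higher in the apex and at least 17.4-fold higher in the cotyledon. The late apex arrays were at least 3.81-fold lower than the 6 h apex. No fold is given for 1 h, 2 h or late light against the dark, where both sides were below the floor. As for AT5G48490, apex 6 h replicate 2 (GAPDH ratio 5.40) was the higher of its pair, here by a factor of 1.97, and replicate 1 alone, at 50.1, was also above its floor.

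At 6 h AT5G55450 averaged 74.4 ± 34.4 in the apex and 217 ± 5.28 in the cotyledon (SD, n = 2 each), 3.09-fold lower in the apex. The log2 difference was -1.63 ± 1.00 and was not called (adjusted p = 0.444, limma), where 3.31% of probe sets were called. The standard error pools all groups, including those below the floor, where signals have no order. With such signals raised to the floor the difference had the same size and a standard error of 0.36 (adjusted p = 0.0139, limma). That setting puts each dim array at its floor, so the spread within dim groups becomes only the gap between floors. The smaller standard error is made by this step, and the call cannot decide whether the tissues differed. The apex 6 h replicates alone were 0.98 apart on the log2 scale. In the dark and at 1 h both tissues were below the floor, and no tissue difference is given.

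The members differed in when they were high. AT5G48490 was high after 1 h and remained so on the 24, 48 and 72 h arrays, while AT5G55450 was below the floor after 1 h and 2 h, above it at 6 h, and below it again from 24 h. Across the 10 group means their Pearson correlation was 0.64, and 0.45 with dim signals raised to the floor, over arrays that the genes share. The first value includes the dim groups of AT5G55450, where signals have no order.

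For each member the 5 most similar genes were found by the Pearson correlation of log2 group means over the 10 groups, among 4926 tested probe sets matched to 1 gene whose group means spanned at least 2 log2 units. For AT5G48490 these were AT1G60590 (r = 0.98), IQD24 (AT5G07240, r = 0.96), of the calmodulin-binding IQ-domain family, AT5G35970 (r = 0.95), AT2G30540 (r = 0.95) and AT1G10640 (r = 0.94). AT1G60590 had geometric mean signals of 1.84 in the dark apex, 36.5 after 1 h, 297 after 2 h, 176 after 6 h and 113 after 72 h, and of 1.49, 26.6 and 385 in the dark, 1 h and 6 h cotyledon. AT5G35970 had 65.5 in the dark apex, 641 after 1 h and 468 after 72 h. With dim signals raised to the floor, 1 of the 5 stayed among the first 5, AT5G35970. The other 4 had dark apex geometric means of 1.75 to 9.08, below the floor.

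For AT5G55450 the 5 were AT5G45650 (r = 0.96), AT2G29370 (r = 0.96), AT2G42220 (r = 0.93), AT4G30800 (r = 0.92) and AT1G06830 (r = 0.90). AT5G55450 itself was above the floor in the 6 h groups alone. These correlations therefore draw on its dim signals, which have no order, and say little beyond a shared high level at 6 h. AT2G42220 was a bright example, with geometric mean signals of 301 in the dark apex, 1437 after 6 h and 515 after 72 h, and of 483 and 1962 in the dark and 6 h cotyledon. AT1G06830 had 86.3 in the apex after 6 h and 164 in the 6 h cotyledon. Its 14.2 in the dark apex and 3.28 after 72 h were below the floor. With dim signals raised, AT5G45650, AT2G29370 and AT1G06830 were still among the first 5.

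**Figure D3:**
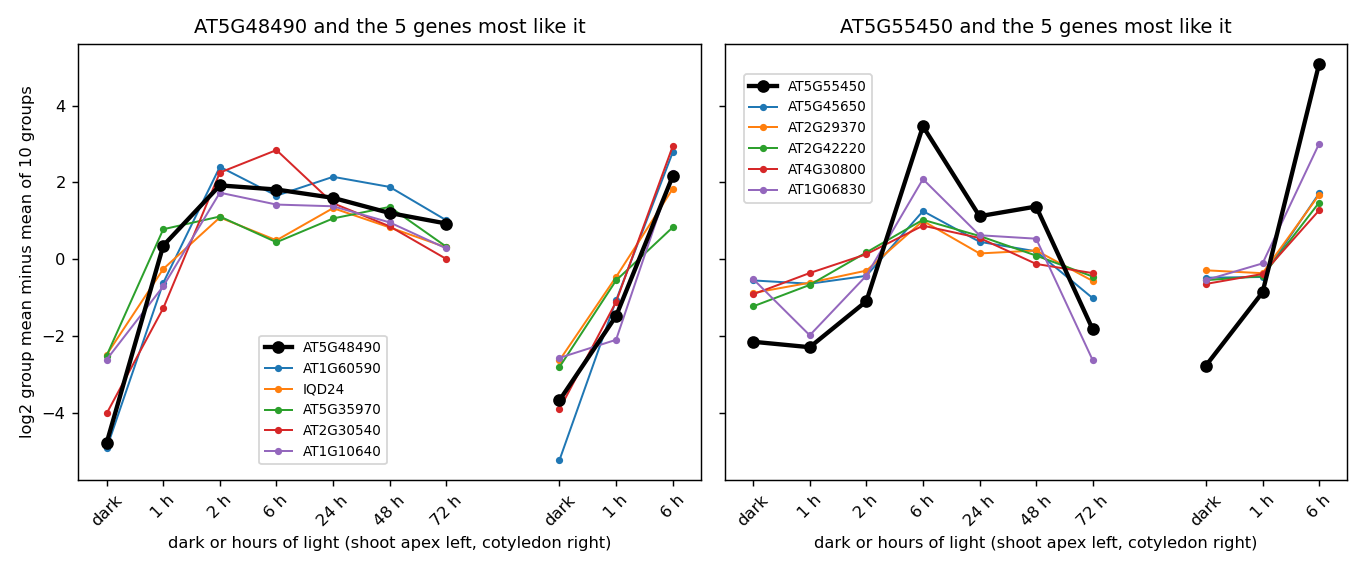
Log2 group means, each gene centred on its mean over 10 groups, for AT5G48490 (left) and AT5G55450 (right) in black with the 5 genes most like each in colour, by hours of light in shoot apex and cotyledon. The genes on the left rise by 1 or 2 h and stay above their dark level in late apex light, though AT2G30540 fell from 204 at 6 h to 28.5 at 72 h. Those on the right are highest at 6 h in both tissues. Both panels include groups below the floor, on the left the dark groups of all coloured genes except AT5G35970. On the right AT5G55450 itself was below it outside 6 h.

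A list of 98 further family loci, set down by hand, had 45 with a probe set of their own, and 38 passed the filter on low signals. Of those 38, 8 were above the floor on all 16 arrays and 15 on 5 arrays or fewer, and 8 (21.1%) were called in at least 1 of 5 light comparisons, beside 37% of all tested probe sets. The largest called log2 difference was 2.04 in the apex at 6 h and 4.29 in the cotyledon at 6 h, both below AT5G48490 in the same comparison. Since that gene was picked for its rise, its place at the top is no finding.

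In the apex after 6 h, limma called 5 of 38 family genes higher and 1 lower, beside 12.3% higher and 12.9% lower among all tested probe sets. The family share was therefore 13.2% higher and 2.63% lower. The family median was 0.18 and that of all tested probe sets -0.07. AT1G62790 rose to 210 and 119 at 6 h, against 28.9 and 50.8 in the dark, a log2 difference of 2.04 ± 0.38. AT5G01870 rose by 1.97 ± 0.53 (1.71 with dim signals raised), AT2G45180 by 1.46 ± 0.41, AT1G48750 by 1.36 ± 0.30 and AT3G18280 by 1.04 ± 0.33, with limma adjusted p-values between 0.00156 and 0.0336 for all 5. The count fell to 2 without apex dark replicate 2, to 2 without apex 6 h replicate 2 and to 3 without apex 6 h replicate 1, and AT1G62790 and AT1G48750 were called in each of these.

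The gene that fell was AT4G22490. It averaged 308 ± 267 in the apex after 6 h and 1145 ± 154 in the dark (SD, n = 2 each), a log2 difference of -2.22 ± 0.52 (adjusted p = 0.00605, limma). In the cotyledon it averaged 518 ± 269 after 6 h and 3359 ± 272 in the dark, a log2 difference of -2.80 ± 0.52 (adjusted p = 0.00214, limma). The sign was opposite to that of both members at 6 h in both tissues.

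In the cotyledon after 6 h, 2 of 38 family genes were called higher and 1 lower, beside 7.79% and 7.73% of all probe sets. AT2G45180 averaged 5536 ± 130 after 6 h and 314 ± 192 in the dark, a log2 difference of 4.29 ± 0.41 (adjusted p = 2.12e-05, limma). It was above the dark in the apex as well, with 3050 and 6549 at 6 h against 1934 and 1356. AT2G10940 averaged 3991 ± 36.1 after 6 h and 1204 ± 142 in the dark, a log2 difference of 1.73 ± 0.27. The family median was -0.01, against -0.08 for all tested probe sets.

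After 1 h of light few family genes were called. In the apex 0 of 38 were higher by limma, beside 5.69% of all probe sets, and 0 were higher at an unadjusted p under 0.05. The apex call went the other way for 2 genes, beside 5.13% of all probe sets. AT2G10940 fell by 1.17 ± 0.27 and AT1G62510 fell by 2.01 ± 0.58, or by 1.15 and without a call once dim signals were raised. These 2 were named after their values were seen. The count dropped to 0 when apex 1 h replicate 2 or apex dark replicate 2 was left out, and to 1 when apex dark replicate 1 or either cotyledon 6 h array was. In the cotyledon 0 of 38 were called by limma in either direction, beside 1.51% higher and 0.674% lower among all probe sets, and at an unadjusted p under 0.05 there were 1 higher and 2 lower.

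In late apex light 4 of 38 family genes were higher and 1 lower, beside 8.61% and 6.42% of all probe sets. The 5 were named here after their values were seen. AT1G62510 had 298, 401 and 370 at 24, 48 and 72 h, against 31.9 and 40.9 in the dark, a log2 difference of 3.29 ± 0.53 (adjusted p = 0.0007, limma). AT5G01870 rose by 3.00 ± 0.49, AT3G18280 by 2.34 ± 0.30 and AT1G48750 by 1.32 ± 0.27. AT4G22490 fell by 1.72 ± 0.47, a call lost without either dark apex array. AT1G62510, AT5G01870 and AT3G18280 were higher on all 3 late arrays than on both 6 h arrays, whereas AT1G48750 was lower at 72 h than at 6 h.

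**Figure D4:**
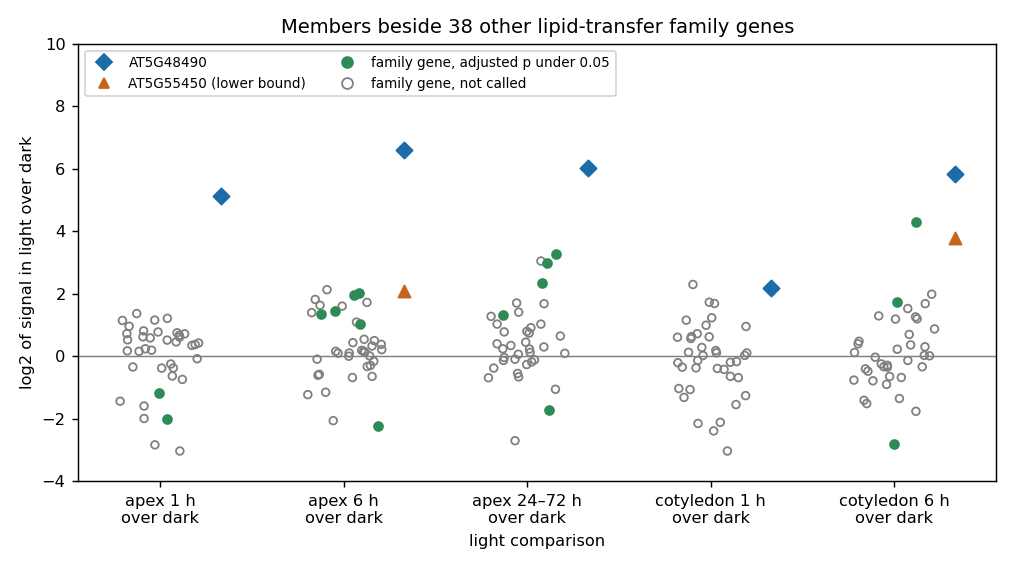
Log2 difference of the signal in light from the dark in 5 comparisons, for 38 other lipid-transfer family genes (circles, filled where limma's adjusted p was under 0.05), AT5G48490 (diamonds) and AT5G55450 (triangles, lower bounds). Few circles are filled, 6 in the apex at 6 h and 3 in the cotyledon at 6 h, and AT2G45180 is the filled circle at 4.29 in the cotyledon.

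Of the family genes listed for their known roles, 4 were tested and 1, AT5G01870, was called in any of the 5 light comparisons, beside 37% of all tested probe sets. Its signal was 68.2 and 63.0 in the apex after 6 h and 125, 253 and 74.6 at 24, 48 and 72 h, against 21.6 and 12.9 in the dark. In the cotyledon it was 19.3 and 23.3 after 6 h, against 21.0 and 20.5 in the dark. AT4G12490 and AT4G12500, which belong to a cluster with AZI1, a gene needed to prime systemic resistance, stayed between 2.11 and 27.0 and between 0.432 and 21.8 over all arrays. AT2G18370 reached at most 25.0. Most of these 3 genes' signals lay at or near the floor, where a change could not be seen.

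Between tissues, 3 of 38 family genes were called in darkness, 3 at 1 h and 5 at 6 h, beside 16.9%, 8.71% and 3.31% of all probe sets. In the dark all 3 were higher in the apex. AT1G62500 was 4.99 ± 0.80 higher (adjusted p = 0.000818, limma) and 3.09 higher with dim signals raised. AT2G45180 was 2.51 ± 0.41 higher and AT4G33550 was 1.99 ± 0.51 higher. After 1 h the same 3 genes were higher in the apex, AT4G33550 at least 7.09-fold. After 6 h AT1G62500 was at least 7.59-fold and AT4G33550 at least 5.26-fold higher in the apex, AT1G48750 and AT3G18280 were 1.53 and 1.31 higher on the log2 scale, and AT2G10940 had a difference of -1.18, lower in the apex. These genes were named after their values were seen.

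The nearest genes on chromosome 5 with a tested probe set of their own, 3 on each side of a member, were read as well, a choice made after the data were seen. AT5G48500, immediately next to AT5G48490, was not called in the apex after 6 h, with a log2 difference of -0.89 (adjusted p = 0.46, limma). AT5G48480, 2 loci away on the other side, rose by 1.46 in that comparison. AT5G48540, 7 loci away, rose by 3.13 in the apex and by 3.79 in the cotyledon after 6 h, or by 2.11 and 3.05 with dim signals raised, since its dark geometric means of 9.09 and 9.50 were below the floor. The other 3 were not called in the apex after 6 h, with limma adjusted p-values of 0.209 for AT5G48460, 0.465 for AT5G48430 and 0.997 for AT5G48530. Around AT5G55450 the 6 genes read lay 5 to 16 loci away, as no closer gene had a tested probe set of its own. They had differences of -0.39 to 1.08 in the apex after 6 h, with limma adjusted p-values of 0.192 to 0.864. AT5G55410 and AT5G55460, lipid-transfer family loci near AT5G55450, had no probe set of their own.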

How the data were processed

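Expression was measured on 16 Affymetrix ATH1 arrays. The authors deposited a linear signal intensity for each probe set, made with GCOS and MAS5 per the submitters' processing notes, with versions not given in the sources used here. The authors' values had been scaled so that each array's trimmed mean was 100.01 to 100.02, and they were log2-transformed with no pseudocount and no further scaling.

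Of 22746 probe sets that were not controls, 18237 exceeded their array's 35th percentile on at least 2 arrays and were tested. Names came from the array annotation, which gave 13436 probe sets 1 locus found in RefSeq (TAIR10.1), 503 several genes and 8730 none. The fit was limma 3.58.1 in R 4.3.3, with 1 mean per group, an intensity trend, no replicate block, 6 residual degrees of freedom and two-sided p-values adjusted by Benjamini-Hochberg over all tested probe sets. A call is an adjusted p under 0.05. The script was tested on simulated data.

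The members and lists were chosen with earlier results of these data known. The planned family rule on gene names matched 0 probe sets, so loci were taken from the hand list (24 loci, 5 with a probe set, 4 tested) and from 74 more added after the files had been seen. Family membership is from these lists, since the annotation names none of them. Lists for cuticle and wax (20 loci) and systemic resistance (12 loci) had 0 with a probe set of their own. Family genes were named by the largest called rises and falls at 6 h, unless the text says otherwise. Alternatives covered scaling, filter, floor, variance prior, replicate block and left-out arrays. Replicate numbers did not pair the samples. No sequence is printed, as none was in the tables used here.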

Additional observations from a re-analysis of the deposited data

How the results depend on the processing

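Of the values recomputed under the alternatives, 430 kept their direction and their side of the threshold or stayed within the replicate spread or 1.5 times the count. Of the rest, 27 moved, 2 became stronger and 1 reversed, and the cause was not tested unless the setting's construction shows it. The limit is wide. The 1 h tissue difference of AT5G48490 is among the 430 at 0.54 without cotyledon 1 h replicate 1, against 1.83 with all arrays. Scaling, filters, variance prior and the replicate block moved none of the members' values past that limit. With dim signals raised to the floor, which shrinks AT5G55450 by construction, its 6 h rise was 2.099 in the apex and 3.80 in the cotyledon, against 5.61 and 7.86 as deposited, and its tissue difference at 6 h stayed -1.63 but became called (limma). The smaller standard error behind that call is also made by the raising. Leaving out 1 array gave AT5G48490 a cotyledon 1 h rise of 0.90 to 3.49, a 1 h tissue difference in response of 1.64 to 4.24, a 1 h tissue difference of 0.54 to 3.13 and a 6 h tissue difference of -0.81 to 0.12, which changed sign without apex 6 h replicate 1. Its late-light rise was 6.14 with the replicate block, against 6.03. Counts of family genes moved most where few were called. Those lower after 1 h in the apex were 1 with quantile normalization, median centring or dim signals raised, 0 without the intensity trend and 0 without both arrays that stood apart, and 0 to 2 without 1 array. Those higher after 6 h in the apex were 3 without the trend and 2 without both arrays that stood apart, and 2 to 5 without 1 array. The gene lower in late light, 1 as reported, was 0 with the replicate block and 0 to 1 without 1 array. In the cotyledon, raised dim signals gave 1 lower at 1 h and 2 lower at 6 h, and 0 to 1 were higher at 1 h without 1 array. Replicate numbers showed no pairing, with correlations of deviations between groups of -0.13 to 0.13. Leaving out both apex dark replicate 2 and apex 6 h replicate 2, called here the arrays that stood apart, was chosen after seeing the data. By the GAPDH ratio the name holds for the 6 h array alone. Apex dark replicate 2 had 1.78, inside the range of the other apex arrays. Over all probe sets, calls without the intensity trend were 1016 against 1974 after 1 h in the apex, 190 against 399 after 1 h in the cotyledon, 628 against 1588 between tissues at 1 h and 192 against 604 at 6 h. Without both arrays that stood apart they were 1204 after 1 h, 2333 against 4594 after 6 h and 1793 against 2740 in late apex light. Without 1 array they ran as low as 722 after 1 h, 2856 after 6 h and 1479 in late light in the apex, 202 after 1 h and 1620 after 6 h in the cotyledon, where the full count was 2829, and 1771, 384 and 197 between tissues in the dark (3077 in full), at 1 h and at 6 h. A floor read from a percentile, not from detection calls, limits every statement on AT5G55450 outside 6 h.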
